A study of Mus musculus with 6 samples.

Results

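Expression of 8 genes of cholesterol synthesis and sterol sensing was examined in cultured mouse mammary cells, given or not given EFNA3 protein. The cells are described as luminal, the type that lines the ducts of the gland. EFNA3, or ephrin-A3, is a ligand that sits in the cell membrane and binds Eph receptor kinases on neighbouring cells. The genes were taken by symbol from the deposited table of 19739 genes, and all 8 were present and passed the filter on low values. They are the enzyme genes Hmgcs1, Idi1, Sqle, Lss, Cyp51 and Dhcr7, the sterol sensor gene Insig1 and the transcription factor gene Srebf2. The EFNA3 group held 3 libraries of wild-type cells kept for 24 hours with EFNA3 protein at 1 µg/ml, and the control group held 3 libraries of wild-type cells at 0 µg/ml. Per the labels, cells of both groups had been purified by flow cytometry, grown with 5% FBS, EGF (10 ng/ml), FGF2 (20 ng/ml), heparin (4 µg/ml) and Y-27632 (5 µM), and starved of serum for 12 hours; EFNA3 was given in medium without serum. The number, strain and age of the animals is not given in the sources used here. Nothing says that libraries came from separate cultures, and the p-values then reflect only library-to-library spread, which may be technical.

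Cells make cholesterol from acetyl-CoA through mevalonate, isoprenoid diphosphates, squalene and lanosterol. SREBP2, the product of Srebf2, is a membrane-bound transcription factor that is held in the endoplasmic reticulum by INSIG proteins and the escort SCAP when sterols are plentiful, and that is cut free in the Golgi when sterols run short. The freed factor raises transcription of nearly every enzyme of the pathway, of Insig1 and of Srebf2 itself. In the mammary gland the pathway supplies membranes of dividing epithelium and part of the cholesterol of milk.

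None of the 8 genes passed the test for a difference between EFNA3 and control cells. For 7 of them the difference was under 0.1 on the log2 scale, and each of these was smaller than the SD between replicates. The exception in size was Lss, the lanosterol synthase gene, at a level 0.871 times that of controls; its 3 EFNA3 libraries all lay below its 3 control libraries, but the test was not passed (difference -0.20, limma adjusted p = 0.550). The 95% intervals of the members together reached from 0.755-fold to 1.27-fold, so for every member a change of 1.5-fold in either direction lay outside its interval. These intervals are of the fit without a replicate block and rest on its library-to-library spread, and none were computed for the alternatives. No gene in the table passed either: limma called 0 of 16394 tested genes at an adjusted p of 0.05, or 0%, and 6.73% stood at an unadjusted p under 0.05, where 0 of the 8 members did. A replicate block by the description labels, an alternative that rests on replicates 1 and 3 of each group, called 71 genes, none of them a member. That fit has almost no residual degrees of freedom, so its calls are not read as changes.

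All values are log2 values that the authors had brought to 1 common distribution, so depth is unknown and a global shift in expression would be invisible. EFNA3 replicate 1 stood apart from the other 5 libraries. The median absolute log2 difference per gene was 0.239 to 0.321 in the 5 pairs of libraries that include it and 0.0959 to 0.142 in the other 10 pairs. It also departed by transcript length, with a mean deviation from the 6-library mean of 0.22 in the shortest eighth of genes and -0.33 in the longest, where the other libraries stayed between -0.09 and 0.12. Differences of the members, the named genes and the pathway lists were recomputed without this library. All 7 luminal markers listed were tested, 5 with a higher EFNA3 mean; Krt8 lay at 13.82 in EFNA3 cells and 13.70 in controls, and Krt19 (difference 0.21, unadjusted p = 0.0442, limma adjusted p = 0.550) and Epcam (0.17) had no overlap. EFNA3 replicate 1 was the highest library for Krt19, at 14.125, and for Epcam, at 14.902. Krt19 lay at 13.83 in EFNA3 replicate 3 and at 13.82 in control replicate 3. Marker differences were not recomputed without EFNA3 replicate 1. Krt18 differed by 0.088 and Elf5 by 0.0024, while Cdh1 (-0.031) and Kit (-0.078) had a lower EFNA3 mean. The groups overlapped for Krt18, Elf5, Cdh1 and Kit. Of 6 basal markers 5 were tested. Krt14, at 16.38 in EFNA3 cells and 16.26 in controls, and Krt5, at 14.9 in both groups, were more abundant than every luminal marker listed. The luminal name thus comes from the description of the cells, and these markers alone do not bear it out. Trp63 lay at 11.74 in EFNA3 cells and 11.79 in controls. The contractile genes Acta2 and Tagln lay at 7.84 and 4.67 in EFNA3 cells and at 7.77 and 5.20 in controls. Myh11 failed the filter. Summed fibroblast markers, mostly Pdgfra, ran from 10.63 to 10.78 in EFNA3 libraries and from 10.75 to 10.79 in control libraries. Pdgfra differed by -0.22 with no overlap, and EFNA3 replicate 1 was its lowest library, at 9.86. The other 4 had a higher EFNA3 mean, with differences from 0.19 for Dcn to 0.60 for Col3a1, and overlapped. Of 3 endothelial markers Pecam1 was tested, at 8.25 in EFNA3 cells and 8.27 in controls, while Cdh5 and Kdr failed the filter. Of 3 immune markers 2 were tested, Csf1r at 4.80 in EFNA3 cells and 4.39 in controls and Cd68 at 7.12 and 7.25. Of 5 adipocyte markers 3 were tested. Fabp4 lay at 7.72 in EFNA3 cells and 8.07 in controls, Plin1 at 2.37 and 3.24, and Cidec at 3.54 and 3.51. None of these markers passed limma, and their part in the results was not tested. In such bulk samples fewer cells of a type and less RNA per cell cannot be told apart.

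SREBP2 acts through sterol regulatory elements in promoters, usually beside binding sites for NF-Y (a CCAAT box) and Sp1 (a GC box). The promoters of 4 members are therefore shown. They are Hmgcs1 and Srebf2, which matched the letters searched for, Lss, which had the largest difference, and Insig1, the sensor. Sequences are from RefSeq (GRCm38.p6), 250 bases before to 50 after the start, and 7 of 8 members had one. Capitals mark TCACNCCA with or without a following C, or CCAAT, on either strand.
Hmgcs1, chr13:119690101-119690400, plus strand: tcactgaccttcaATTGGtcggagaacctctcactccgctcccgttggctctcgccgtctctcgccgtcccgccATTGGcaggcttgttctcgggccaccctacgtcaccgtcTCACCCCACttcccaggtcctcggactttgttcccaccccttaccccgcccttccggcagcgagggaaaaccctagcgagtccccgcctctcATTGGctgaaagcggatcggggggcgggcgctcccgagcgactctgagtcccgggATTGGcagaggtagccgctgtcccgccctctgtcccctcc
Srebf2, chr15:82147019-82147318, plus strand: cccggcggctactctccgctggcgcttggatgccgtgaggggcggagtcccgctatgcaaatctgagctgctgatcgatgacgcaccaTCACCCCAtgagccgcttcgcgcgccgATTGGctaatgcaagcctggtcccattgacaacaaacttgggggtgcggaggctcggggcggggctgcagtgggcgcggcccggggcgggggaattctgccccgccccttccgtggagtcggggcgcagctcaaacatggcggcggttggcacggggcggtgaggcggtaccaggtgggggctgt
Lss, chr10:76531355-76531654, plus strand: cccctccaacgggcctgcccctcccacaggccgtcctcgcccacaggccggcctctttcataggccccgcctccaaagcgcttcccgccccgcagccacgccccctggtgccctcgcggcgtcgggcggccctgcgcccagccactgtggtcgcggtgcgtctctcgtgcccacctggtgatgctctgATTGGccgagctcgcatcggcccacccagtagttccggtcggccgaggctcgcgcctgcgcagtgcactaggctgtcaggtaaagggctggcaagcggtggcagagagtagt
Insig1, chr5:28071162-28071461, plus strand: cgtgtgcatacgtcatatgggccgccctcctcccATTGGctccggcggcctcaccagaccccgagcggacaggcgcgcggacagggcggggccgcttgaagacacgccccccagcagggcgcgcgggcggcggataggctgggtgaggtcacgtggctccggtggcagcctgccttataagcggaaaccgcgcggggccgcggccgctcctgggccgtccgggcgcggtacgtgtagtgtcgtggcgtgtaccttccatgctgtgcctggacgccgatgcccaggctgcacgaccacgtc
The pattern TCACNCCAC was found in 1 of 7 members, in Hmgcs1 from position -137, counted from the start. It was found in 1.44% of 27025 genes with a promoter in the table. The shorter TCACNCCA, which lies inside the longer motif and was added after these promoters had been read, was also found in Srebf2 from position -162, making 2 of 7 members against 4.97% of all genes. CCAAT was found in 7 of 7 members and in 41.1% of all genes, and GGGCGG in 7 of 7 and in 38.2%. All genes here means every gene of the promoter set, whether tested in these libraries or not. Shares among tested genes alone were not computed. Other pathway lists also held both motifs. In the squalene to cholesterol list CCAAT and GGGCGG were found in 7 of 8 and 8 of 8 genes. The shares were 4 of 4 and 4 of 4 for uptake and transport, and 4 of 6 and 3 of 6 for mevalonate and isoprenoid enzymes. They were 3 of 8 and 7 of 8 for SREBP processing, and 3 of 8 and 3 of 8 for LXR, efflux and storage. The E-box CACGTG was found in 2 of 7 members, Dhcr7 and Insig1, and in 8.09% of all genes. Dhcr7 had 3 start sites in the table, and a motif at any of them was counted. A match is a description of the letters and not evidence of binding in these cells. Only exact matches were counted, so sterol regulatory elements with other letters would be missed, and no match does not mean no element.

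Srebf2 encodes the factor that drives the pathway. Its log2 values were 11.50, 11.69 and 11.57 in EFNA3 replicates 1 to 3, against 11.65, 11.52 and 11.63 in control replicates 1 to 3. The groups overlapped fully, with the lowest and the highest library both in the EFNA3 group. The difference was -0.011 (SE 0.08, limma adjusted p = 0.959), with a 95% interval from -0.19 to 0.16. Insig1 encodes the retention protein that SREBP2 itself induces, and is often read as a sign of SREBP2 activity. It had log2 values of 7.69, 7.71 and 7.55 in EFNA3 replicates 1 to 3 and 7.64, 7.71 and 7.75 in control replicates 1 to 3. EFNA3 replicate 3 was the lowest of the 6, and the other 5 libraries lay within a narrow band shared by both groups. Insig1 differed by -0.05 (SE 0.11, limma adjusted p = 0.850), with an interval from -0.31 to 0.20.

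**Figure D1:**
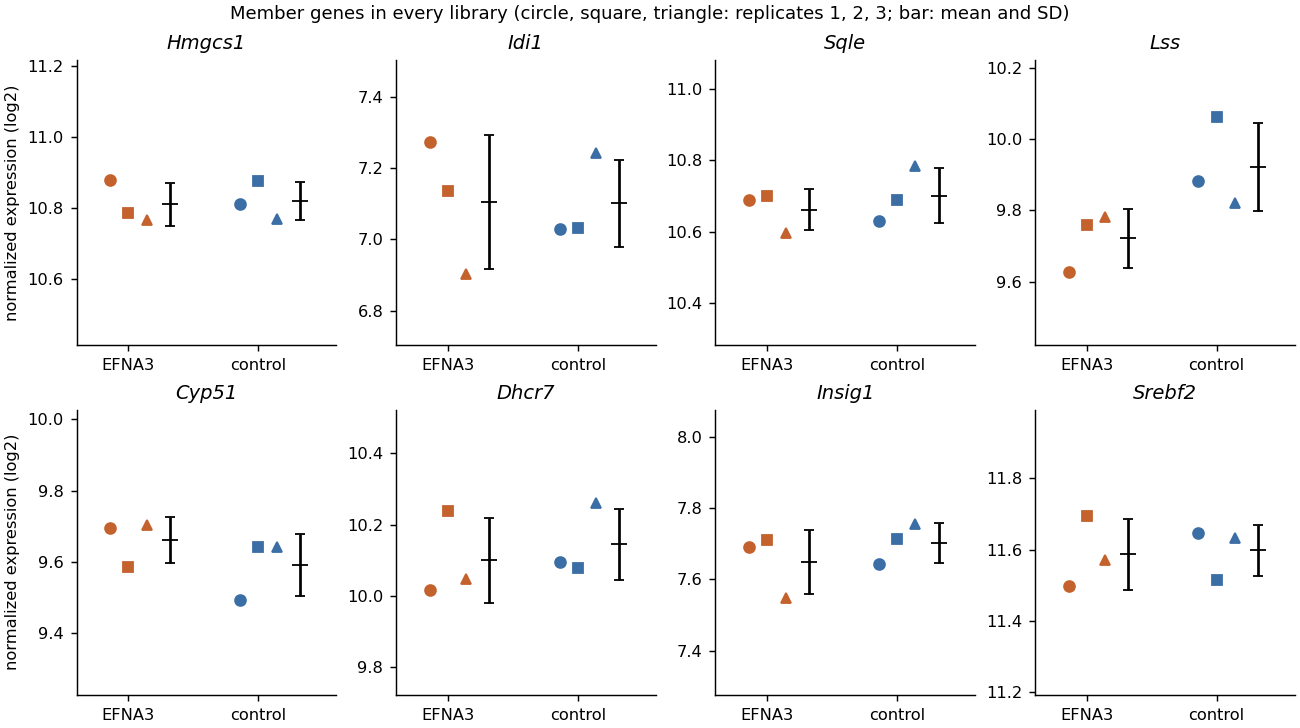
Log2 normalized expression of the 8 members in each library, EFNA3 left and control right, with replicates 1, 2 and 3 as circle, square and triangle and the mean and SD as a black bar; every panel spans the same height. The groups overlap in 7 panels, and in the Lss panel the EFNA3 libraries, 9.63 to 9.78, lie below the control libraries, 9.82 to 10.06.

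At the head of the pathway, Hmgcs1, whose product makes HMG-CoA from acetoacetyl-CoA, had log2 values of 10.88, 10.79 and 10.77 in EFNA3 replicates 1 to 3 and 10.81, 10.88 and 10.77 in control replicates 1 to 3. The highest and the lowest values were nearly the same in both groups. The difference was -0.0084 (SE 0.07, limma adjusted p = 0.967), and its interval, 0.890-fold to 1.11-fold, was the narrowest of the members. Idi1, which encodes the isomerase that readies isopentenyl diphosphate for chain building, had log2 values of 7.27, 7.14 and 6.90 in EFNA3 replicates 1 to 3 and 7.03, 7.03 and 7.24 in control replicates 1 to 3. It was the least abundant and the most variable member, and its EFNA3 libraries spanned the whole control range. Its difference was 0.0041 (SE 0.15, limma adjusted p = 0.994), with an interval from -0.33 to 0.34. The Idi1 difference came to -0.08 when EFNA3 replicate 1 was left out and to 0.10 when EFNA3 replicate 3 was.

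Sqle encodes squalene epoxidase, a rate-limiting enzyme at the entry to sterols. Its log2 values were 10.69, 10.70 and 10.60 in EFNA3 replicates 1 to 3 and 10.63, 10.69 and 10.78 in control replicates 1 to 3. EFNA3 replicate 3 was lowest and control replicate 3 highest, with the other 4 libraries between them and mixed. The difference was -0.04 (SE 0.07, limma adjusted p = 0.832).

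Lss encodes the cyclase that turns the product of Sqle into lanosterol, the first sterol. It had log2 values of 9.63, 9.76 and 9.78 in EFNA3 replicates 1 to 3 and 9.88, 10.06 and 9.82 in control replicates 1 to 3, with means of 9.72 ± 0.08 and 9.92 ± 0.12 (SD, n = 3 each). The groups did not overlap, though EFNA3 replicate 3 and control replicate 3 were close. The difference was -0.20 (SE 0.09; 95% interval -0.41 to 0.01), with a limma p of 0.0559 before adjustment. Lss was the 1 member of 8, 12.5%, whose groups did not overlap; among all tested genes 16.0% had no overlap, 7.45% with EFNA3 lower and 8.53% with EFNA3 higher. The Lss difference came to -0.15 when EFNA3 replicate 1 was left out and to -0.13 when control replicate 2, the highest library, was. It was -0.11 when transcript length and GC share were taken out of every library, and -0.036 when this was done with the longest annotated transcript of each gene, which for Lss is 6992 nt, in place of the RefSeq-paired one of 4667 nt.

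Cyp51, the gene of lanosterol demethylase, is the next step after Lss. Its log2 values were 9.70, 9.59 and 9.70 in EFNA3 replicates 1 to 3 and 9.49, 9.64 and 9.64 in control replicates 1 to 3. Control replicate 1 was lowest, and EFNA3 replicate 2 lay below the other 2 controls. The difference was 0.07 (SE 0.08, limma adjusted p = 0.723), opposite in sign to that of Lss, and neither passed the test. The Cyp51 difference was 0.019 without control replicate 1 and 0.12 with the length and GC correction. Dhcr7, whose product carries out the final reduction to cholesterol in 1 branch of the pathway, had log2 values of 10.02, 10.24 and 10.05 in EFNA3 replicates 1 to 3 and 10.10, 10.08 and 10.26 in control replicates 1 to 3. In each group 1 library was high, EFNA3 replicate 2 and control replicate 3, and the other 4 lay close together. Dhcr7 differed by -0.04 (SE 0.09, limma adjusted p = 0.845).

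Taken by library, the members were a little low in EFNA3 replicate 3 and a little high in control replicate 3. The median deviation of the 8 members from their own 6-library means came to 0.011 for EFNA3 replicate 1, 0.027 for EFNA3 replicate 2 and -0.061 for EFNA3 replicate 3, against -0.030, 0.012 and 0.059 for control replicates 1, 2 and 3. In EFNA3 replicate 3 only Cyp51 lay above its own mean, and in control replicate 3, where 6 of 8 did, Lss and Hmgcs1 lay below. The 44 other tested genes of the pathway lists had median deviations between -0.013 and 0.027. All 8 members varied less between replicates than the median tested gene, with SDs within groups from 0.057 for Hmgcs1 to 0.16 for Idi1. This spread was not compared with that of genes of like level. Control means of the members ran from 7.10 for Idi1 to 11.60 for Srebf2, and the median tested gene lay at 9.03. The median difference over the 8 members was -0.025, against 0.0038 over all tested genes, and 2 of 8 had a higher mean with EFNA3, where 50.8% of all tested genes did. That count was 5 without control replicate 3, 4 with the length and GC correction and 1 when libraries were shifted by their trimmed mean.

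Levels were compared between genes after dividing by transcript length. By the RefSeq-paired transcript, Srebf2 and Sqle stood highest on the log2 scale per kb, with Srebf2 at 9.24 in EFNA3 cells and 9.25 in controls and Sqle at 9.20 in EFNA3 cells and 9.24 in controls. Hmgcs1 followed at 9.02 in EFNA3 cells and 9.03 in controls, and Dhcr7 at 8.61 in EFNA3 cells and 8.65 in controls. Cyp51 lay at 7.69 per kb in EFNA3 cells and 7.62 in controls, and Lss at 7.50 in EFNA3 cells and 7.70 in controls. Insig1 stood at 6.22 in EFNA3 cells and 6.27 in controls, and Idi1 was last at 5.51 in EFNA3 cells and 5.50 in controls. The order of neighbours was the same in 6 of 6 libraries except for Srebf2 over Sqle, which held in 3, and Cyp51 over Lss, which held in 4. Srebf1, the gene of the related factor that mainly drives fatty acid synthesis, was higher than Srebf2 per kb by 2.21 ± 0.12 in EFNA3 cells and 2.22 ± 0.11 in controls (log2, SD, n = 3 each). Insig2, which encodes the other INSIG protein, was higher than Insig1 by 2.83 ± 0.22 in EFNA3 cells and 2.70 ± 0.08 in controls on the same scale. With the longest annotated transcript, an alternative chosen after seeing the data, of 4467 nt in place of 2758 nt, Sqle stood at 8.50 in EFNA3 cells and 8.54 in controls, after Srebf2, Hmgcs1 and Dhcr7. In every library Srebf1 and Insig2 exceeded their partners by more than 2 on this scale.

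**Figure D2:**
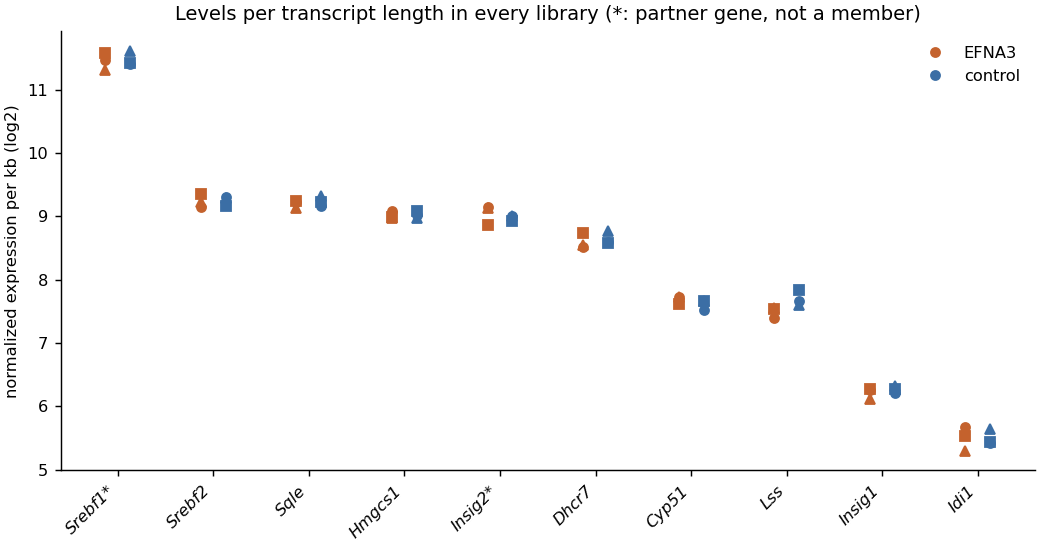
Log2 normalized expression per kb of transcript for the 8 members and 2 partner genes (starred) in each library, EFNA3 left and control right of each pair, ordered by mean level. Members run from 9.25 for Srebf2 to 5.50 for Idi1 in controls, and Srebf1 and Insig2 stand above Srebf2 and Insig1 in every library.

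Other enzymes of the mevalonate and isoprenoid steps gave no call. Of 7 listed genes 6 were tested, and 0 passed limma in either direction or stood at an unadjusted p under 0.05. In mean 6 were higher and 0 lower with EFNA3, with a median difference of 0.10; without EFNA3 replicate 1, 4 were higher and 2 lower, with a median of 0.041, and with the length and GC correction 5 were higher and 1 lower. The smallest unadjusted p in the list belonged to Fdps, the farnesyl diphosphate synthase gene, which stood at 7.65, 6.67 and 7.37 in EFNA3 replicates 1 to 3, against 6.71, 6.91 and 7.06 in controls. Its EFNA3 libraries lay on both sides of the controls, and its difference of 0.34 (SE 0.24) became 0.12 when EFNA3 replicate 1 was left out and 0.62 when EFNA3 replicate 2 was. Mvd, the mevalonate diphosphate decarboxylase gene, differed by 0.14 (SE 0.11) with no overlap, and by 0.07 after the length and GC correction. Acat2, the gene of the thiolase that feeds Hmgcs1, differed by 0.12 (SE 0.13) and by -0.0043 without control replicate 2.

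Among 9 genes of the steps from squalene to cholesterol, 6 were higher and 3 lower in mean, against 4 and 5 without EFNA3 replicate 1 and also with the length and GC correction. Of these 0 passed limma and 1 had an unadjusted p under 0.05. It was Ebp, a sterol isomerase late in the pathway, with log2 values of 10.61, 10.27 and 10.19 in EFNA3 replicates 1 to 3 and 10.09, 9.89 and 10.19 in control replicates 1 to 3. EFNA3 replicate 1 was far above the rest, and EFNA3 replicate 3 was only just above control replicate 3. Ebp differed by 0.30 (SE 0.12, limma adjusted p = 0.550), and by 0.17 without EFNA3 replicate 1. Lbr, a nuclear envelope protein with sterol reductase activity, differed by -0.14 (SE 0.08) with no overlap. Hsd17b7, a ketosteroid reductase of the demethylation steps, differed by -0.26 (SE 0.16), with EFNA3 replicate 1 at 7.25 and the other 5 libraries at 7.71 to 7.96, and by -0.11 without that library.

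The machinery that senses sterols and degrades pathway enzymes when they are plentiful had the narrowest range of differences of the 5 pathway lists. Over 13 tested genes they ran from -0.11 to 0.08, 7 were higher and 6 lower, and 0 passed limma or an unadjusted p under 0.05. The split was 5 higher and 8 lower without EFNA3 replicate 1, and 12 higher and 1 lower with the length and GC correction, at a median of 0.047. Insig2 differed by 0.08 (SE 0.09) and Srebf1 by -0.020 (SE 0.09). The smallest unadjusted p-values belonged to Marchf6, a ubiquitin ligase of squalene epoxidase, at -0.11 (SE 0.07), and to the genes of the proteases that free SREBPs, Mbtps1 at -0.08 (SE 0.07) and Mbtps2 at -0.10 (SE 0.08). Without EFNA3 replicate 1 these were -0.047, -0.040 and -0.029.

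**Figure D3:**
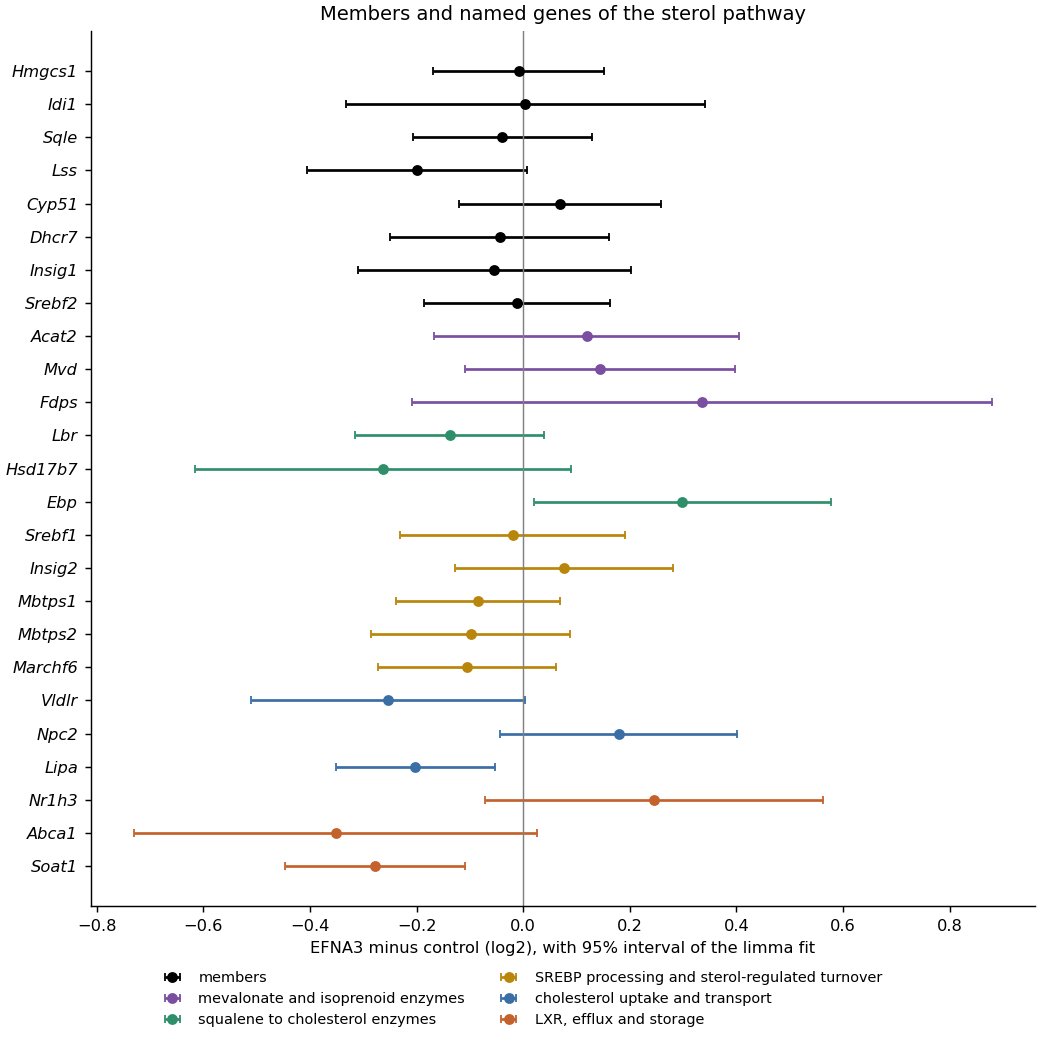
EFNA3 minus control differences (log2) with 95% intervals of the limma fit for the 8 members and the 17 named pathway genes, coloured by list. The intervals of all 8 members include 0, and those of Ebp, Lipa and Soat1 do not, though none of the 25 genes passed adjustment over all tested genes.

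Genes that bring cholesterol in, store it or send it out gave no call either. In the uptake and transport list 3 of 7 tested genes were higher and 4 lower (4 and 3 with the length and GC correction), 0 passed limma and 1 stood at an unadjusted p under 0.05. This was Lipa, the lysosomal acid lipase that frees cholesterol from LDL, with 11.93, 12.00 and 12.04 in EFNA3 replicates 1 to 3, against 12.23, 12.20 and 12.14 in controls. Its groups did not overlap and its difference was -0.20 (SE 0.07, limma adjusted p = 0.550). Vldlr, the receptor gene for triglyceride-rich lipoproteins, differed by -0.25 (SE 0.11) with no overlap. The Vldlr difference was -0.13 without EFNA3 replicate 1 and -0.08 with the length and GC correction. Npc2, a cholesterol carrier of the lysosome, differed by 0.18 (SE 0.10), and by 0.08 without EFNA3 replicate 1.

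In the list of LXR, efflux and storage genes 3 of 9 were higher and 6 lower in mean (5 and 4 without EFNA3 replicate 1 and also with the length and GC correction), 0 passed limma and 1 had an unadjusted p under 0.05. Soat1, whose product esterifies cholesterol for storage, had log2 values of 11.24, 11.20 and 11.09 in EFNA3 replicates 1 to 3 and 11.54, 11.44 and 11.39 in control replicates 1 to 3. Every EFNA3 library lay below every control, and the difference was -0.28 (SE 0.07; 95% interval -0.45 to -0.11), or 0.824-fold. Its unadjusted limma p was 0.00464 and its adjusted p 0.550. Without EFNA3 replicate 1 the Soat1 difference was -0.31. After the length and GC correction, in which its transcript counts as 8371 nt, the difference was -0.094, or -0.25 if that library was also left out. Abca1, the cholesterol exporter gene, differed by -0.35 (SE 0.17) with no overlap, and by -0.13 without EFNA3 replicate 1. It stood at 14.05, 14.69 and 14.77 in EFNA3 replicates 1 to 3, against 14.83, 14.92 and 14.83 in controls. Nr1h3, the gene of the sterol-activated receptor LXR alpha, differed by 0.25 (SE 0.14), and by 0.13 without EFNA3 replicate 1. Over the 5 lists together 3 of 44 tested genes stood at an unadjusted p under 0.05, and all tested genes did so at 6.73%.

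The genes whose 6-library profile was nearest to the mean profile of the members were Scaf1, Trmt2b, Oxa1l, Cercam and Ptk7, with root-mean-square differences of 0.013 to 0.020 on the log2 scale. The members themselves lay at 0.024 for Sqle, 0.030 for Insig1 and up to 0.13 for Lss from the mean profile to which they contribute. Likeness here is to a nearly flat profile over 6 libraries. None of the 5 genes is in the pathway lists.

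**Figure D4:**
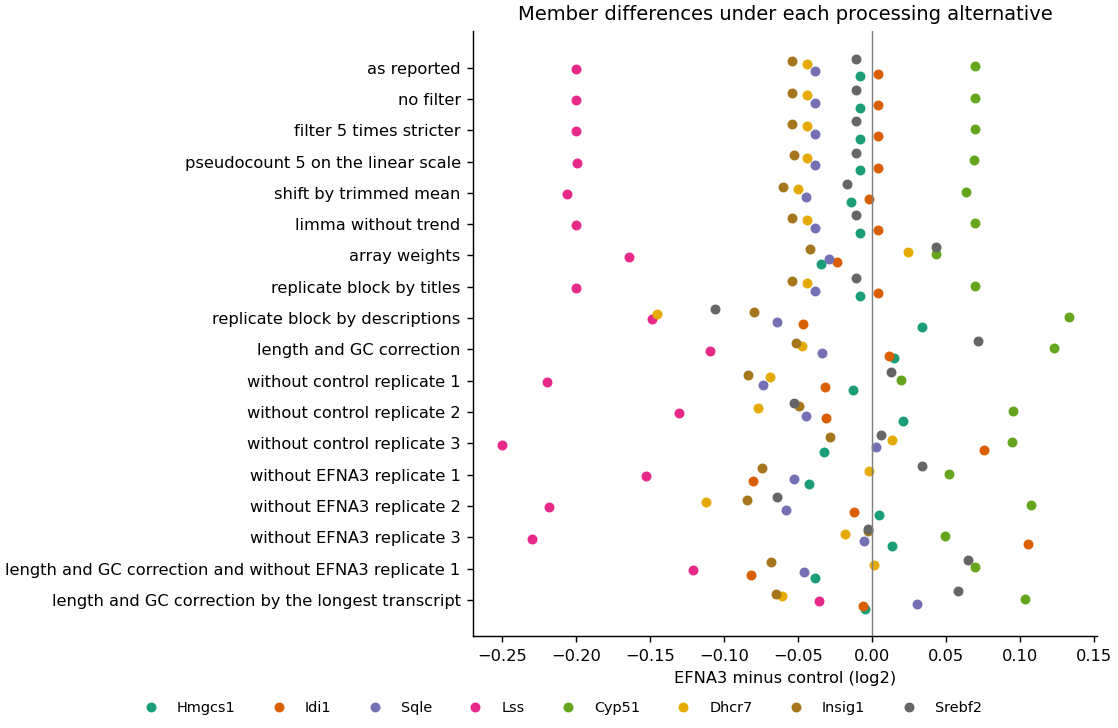
EFNA3 minus control differences (log2) of the 8 members as reported and under each of 17 processing alternatives. Lss stays lowest in 16 of the 17 alternatives and moves between -0.25 and -0.036, while Cyp51 stays above 0 in all 17 and the other 6 members lie between -0.15 and 0.10.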

How the data were processed

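RNA of cultured mouse mammary cells described as luminal was sequenced in 3 EFNA3 and 3 control libraries. The labels' protocols describe these as stranded mRNA preparations. Trim Galore, Subread, featureCounts and mm39 are named in the submitters' processing notes, and anything on their versions, the annotation or the strand setting is not given in the sources used here. Values deposited by the authors are log2 values (base inferred from their size, -0.794 to 18.1), and the sorted columns differ by at most 0.00302, as after quantile normalization. Depth is unknown, so no counting interval is given, and groups follow the sample titles.

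A gene entered the test if 3 or more of the 6 libraries reached a log2 value of 3.32 (10 in linear terms), as 16394 did. These were fitted with limma 3.58.1 in R 4.3.3, with the variance trended on the mean and without a block, and the moderated two-sided p-values took Benjamini-Hochberg adjustment over all tested genes at 0.05. With 3 libraries per group an exact permutation test has a smallest p of 0.1 and was not used. The members, gene lists and rule for named genes (the members, the 3 genes per list with the smallest unadjusted p, 2 partner genes, and the 5 genes nearest in profile, predicted genes left out) were chosen with earlier results of these data known. Of the listed pathway genes 3 are not reported here: they stayed in the fit, but list counts, medians and the rule for named genes leave them out, and so do not describe the full lists.

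Transcript length and GC share are those of the longest RefSeq-paired transcript of each gene in GENCODE M21 (GRCm38), matched by symbol for 98.8% of tested genes; where no transcript was paired, the longest was used. The correction was first computed with the longest transcript of every gene, and the RefSeq-paired one was chosen after those results, that of Lss among them, had been seen. They served for levels per kb and for a correction by splines, each with 5 degrees of freedom, in both properties. Alternatives covered the filter, a pseudocount of 5, scaling, the variance model, array weights, replicate blocks, the length and GC correction and leaving out each library.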

Additional observations from a re-analysis of the deposited data

How the results depend on the processing

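No member and none of the 17 other named genes passed limma over all tested genes under any of 17 alternatives, the lowest adjusted p being 0.333 for a member and 0.328 for another gene. Of 136 member values under alternatives 26 changed sign, none of them beyond 0.081 in size; those of Lss, Cyp51 and Insig1 kept their sign. The number of genes called was 0 under all alternatives but the replicate block that follows the description labels, where it was 71. In that block 2 libraries stand alone and only replicates 1 and 3 of each group give the difference. It leaves almost no residual degrees of freedom, so its calls are not read as changes. With that block the member median was -0.072, Hmgcs1 stood at 0.033, Idi1 at -0.047 and Acat2 at -0.020; with a replicate block by the titles the pairing changed no call (Lss at -0.20, adjusted p = 0.670). Title numbers were not taken to pair libraries, since nothing says that equal numbers share an animal or culture. The deviations of same-numbered libraries from their group means correlated over genes at -0.105, 0.0297 and -0.318 for numbers 1, 2 and 3. With 3 libraries per group and EFNA3 replicate 1 apart from the rest, such correlations cannot show whether libraries were paired. The number of members with a higher EFNA3 mean was 1 with a shift by the trimmed mean, where Idi1 stood at -0.0020, and 4 with the length and GC correction.

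With array weights Idi1 stood at -0.024, Dhcr7 at 0.024, Srebf2 at 0.043, Insig2 at -0.0056 and Srebf1 at 0.022. With the length and GC correction Hmgcs1 stood at 0.015, Srebf2 at 0.071, Marchf6 at 0.038, Mbtps2 at 0.0098 and Srebf1 at 0.026. The transcript used in the correction just given, and the alternative that follows, were chosen after seeing the data. Without EFNA3 replicate 1 as well, Idi1 stood at -0.081, Dhcr7 at 0.0013, Srebf2 at 0.065 and Mbtps2 at 0.0020. By the longest transcript, with which the correction was first computed, Idi1 stood at -0.0064, Sqle at 0.030, Srebf2 at 0.058, Marchf6 at 0.029, Mbtps1 at 0.074 and Srebf1 at 0.0081.

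Leaving out 1 library at a time, 0 genes were called each time. The member median ran from -0.061 to 0.0043 and the number of members with a higher mean from 2 to 5. Hmgcs1 ran from -0.043 to 0.020, Idi1 from -0.081 to 0.10, Sqle from -0.074 to 0.0023, Lss from -0.25 to -0.13, Cyp51 from 0.019 to 0.11, Insig1 from -0.085 to -0.0026, Dhcr7 from -0.11 to 0.013 and Srebf2 from -0.064 to 0.034. Acat2 ran from -0.0043 to 0.20 and Srebf1 from -0.085 to 0.054. The causes of these moves were not tested, and without depth the precision of low genes such as Idi1 cannot be set.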
